A study of Mus musculus with 2 samples.

Results

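The interferon response genes are 38 mouse genes that cells raise when they receive an interferon signal, chosen by name as members of the IFIT, OAS, MX, PYHIN, guanylate-binding protein and immunity-related GTPase families together with sensors, transcription factors and other antiviral genes. Of these, 36 are among the 19169 genes of the deposited table, and Mx1 and Mx2 were not analysed here. The cells came from mouse gastrocnemius, a calf muscle, and were collected on day 14 after cardiotoxin (CTX), a venom protein that destroys muscle fibers, had been injected. There was 1 library labelled WT and 1 labelled GSDME-KO (KO below). GSDME is a pore-forming protein that drives lytic cell death, and the WT mice were C57BL/6J. Both groups received CTX, and only male mice were used in the study, with 5 mice per group. Whether they were pooled for each library is not stated, and their age was not given in the sources used here. Cells were counted per droplet by unique molecular identifiers (UMIs), which mark single RNA molecules, with a kit that reads the 5′ end of the RNA. The WT-labelled library held 6354 cells and 44758518 UMIs (median per cell, 5740), and the KO-labelled library 7078 cells and 50930011 UMIs (median, 5962.5). Only 4 barcodes were shared by the libraries. With 1 library per genotype no test between genotypes was possible. Intervals of levels, shares and ratios below are exact 95% intervals, and those of share differences are built from the exact intervals of both shares. These cover counting error only, not the difference between mice. Intervals of medians come from the ranked values of the members and are not counting intervals.

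The targeted gene did not separate the libraries. Gsdme had 225 UMIs in the WT-labelled library, which is 5.03 UMIs per 1000000 UMIs (CPM, 4.39 to 5.73), and 237 UMIs in the KO-labelled library, which is 4.65 CPM (4.08 to 5.29). Which part of the gene the KO allele lacks is not given in the sources used here, so these counts do not check the labels, and each library is named by its label throughout.

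Interferons reach cells through surface receptors, JAK kinases and transcription factors such as STAT2 and IRF9, which bind short GAAA-rich elements in front of target genes. Type I interferons (Ifnb1 and its relatives) raise most of the genes described here, whereas interferon gamma raises guanylate-binding proteins and immunity-related GTPases most. The products bind viral RNA (IFIT proteins), make the activator of RNase L (OAS proteins), modify other proteins (ISG15), hold budding virus at the membrane (BST2), make a chain-terminating nucleotide (viperin, encoded by Rsad2), sense nucleic acid (IFIH1, ZBP1, PYHIN proteins) or attack vacuoles that hold pathogens (GBP and IRG proteins).

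The element named above can be read in front of the genes. Promoter windows from RefSeq (GRCm38.p6, the same assembly as the mm10 named in the submitters' processing notes), which run from 250 bases before to 50 bases after each start, were held for 28 of the 36 genes. GAAANNGAA, the core of the element, was found on either strand in 19 of the 28 genes (67.9%), and in 9.76% of all 27025 genes with a window. Stretches of 5 promoters are shown because these genes head the results below: Ifit1, Isg15 and Rsad2 are used to call an interferon-high cell, and Ifi205 and Gbp2 differed least or in the other direction between the libraries in FAP-like cells. All lie before the start of the gene, and capitals mark each match to GAAANNGAA or its reverse complement, with overlapping matches run together.
Ifit1, plus strand, chr19:34640750-34640843: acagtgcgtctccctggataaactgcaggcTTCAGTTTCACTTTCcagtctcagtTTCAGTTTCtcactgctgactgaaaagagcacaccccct
Isg15, minus strand, chr4:156200846-156200926: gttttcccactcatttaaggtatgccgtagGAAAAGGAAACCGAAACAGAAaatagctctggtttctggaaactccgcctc
Rsad2, minus strand, chr12:26456533-26456601: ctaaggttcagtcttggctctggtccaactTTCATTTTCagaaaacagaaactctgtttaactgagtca
Ifi205, minus strand, chr1:174031851-174031919: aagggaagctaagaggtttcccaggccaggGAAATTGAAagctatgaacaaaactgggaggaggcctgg
Gbp2, plus strand, chr3:142620575-142620643: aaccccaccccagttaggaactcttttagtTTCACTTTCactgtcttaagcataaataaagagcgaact
Ifit1 and Isg15 each held 3 matches in these stretches and the other 3 genes 1 each. A match describes these letters and is not evidence of binding.

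The genes lie in family clusters. In the same RefSeq build, Ifit2, Ifit3 and Ifit1 follow each other on chromosome 19 (34550550 to 34650009), Rsad2 and Cmpk2 are neighbors on chromosome 12 (26442743 to 26479837), Ifi204, Ifi203 and Ifi205 stand together on chromosome 1 (173747293 to 174031755), and Gbp7, Gbp3 and Gbp2 on chromosome 3 (142530336 to 142638008). Reads of such relatives can be split or shared between them, so the values of single PYHIN, GBP, OAS and IFIT genes are less certain than those of their family.

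Cells were grouped by clustering without these genes or further interferon genes, so that the response itself could not define a cell type, and clusters were named from marker genes. The 11 types with at least 50 cells in both libraries resembled fibro-adipogenic progenitors (FAPs), endothelium, macrophages, mural cells, tenocytes, muscle stem cells (MuSCs), Schwann cells, monocytes, dendritic cells, T cells and lymphatic endothelium. FAP-like cells carried 41800 CPM of the 7 FAP markers in the WT-labelled library and 44372 in the KO-labelled library, against 421 and 347 CPM in endothelial-like cells. The 6 endothelial markers summed to 7927 and 8796 CPM in endothelial-like cells and to 68.5 and 37.1 CPM in FAP-like cells. The 6 markers of plasmacytoid dendritic cells, a major source of type I interferon in blood, all had UMIs and were highest in dendritic cell-like cells, at 72.4 and 92.0 CPM.

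Endothelial-like cells held the highest level of more of the genes than any other type. In both libraries 16 of the 36 genes were highest in endothelial-like cells, among them Ifit2, Rsad2, Irf7, Cmpk2, Usp18, Bst2, Gbp3, Gbp4 and Gbp7, and 11 genes were highest in a different type in each library. The share of all genes highest in endothelial-like cells is not given here. For Irf9, Ifih1, Usp18, Xaf1, Trim30a, Parp14, Gbp3 and Gbp7 the counting interval of the second type overlapped in the WT-labelled library, the KO-labelled library or both. Of 35 members with at least 20 UMIs over both types in each library, 19 were over 1.5-fold higher in endothelial-like than in FAP-like cells with the whole counting interval past that size, where 19.7% of 12549 genes were, and 4 were so in the other direction, against 17.7%. Bst2, the tether of budding virus, stood at 1162 CPM (WT) and 812 CPM (KO) in endothelial-like cells against 209 and 149 CPM in FAP-like cells. Rsad2 (viperin) stood at 358 and 189 CPM against 33.2 and 13.5 CPM. Among the 4 largest types Gbp4 was read mainly in endothelial-like (142 and 138 CPM) and mural-like cells (98.9 and 90.4 CPM). It was at most 3.02 CPM in FAP-like and macrophage-like cells. Mural-like cells also carried 5532 and 6004 CPM of the endothelial markers. The part of endothelial RNA in their Gbp4 was not tested.

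FAP-like cells stood out for the PYHIN family, proteins that bind DNA. Ifi203, Ifi204 and Ifi205 were the only members highest in FAP-like cells in both libraries. Ifi205 reached 840 and 843 CPM there and 5.61 and 11.6 CPM in endothelial-like cells, whereas Ifi203 was at 954 and 851 CPM against 286 and 268 CPM. Ifi204 also had a high level in macrophage-like cells, at 294 and 270 CPM, next to 521 and 504 CPM in FAP-like cells. Zbp1, the sensor of Z-form nucleic acid, was the only other gene over 1.5-fold higher in FAP-like than in endothelial-like cells in both libraries, at 19.2 and 13.9 CPM against 9.62 and 5.75 CPM.

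Macrophage-like cells led for 3 members, Oas1a (22.4 and 13.9 CPM), Oas2 (32.4 and 28.0 CPM) and the helicase Ddx60 (37.3 and 39.8 CPM). Intervals of the second type overlapped for Oas1a, in dendritic cell-like cells (22.0 CPM, WT) and endothelial-like cells (9.63 CPM, KO). For Oas2 those of endothelial-like cells did in the KO-labelled library (26.3 CPM). Oasl1 was high in cells of the myeloid line, at 128 and 99.4 CPM in macrophage-like and 69.6 and 185 CPM in monocyte-like cells, against 7.44 and 5.10 CPM in FAP-like cells. Oas3, which makes long chains of the RNase L activator, had 58 and 47 UMIs in macrophage-like cells and fewer than 20 over both libraries in every other type. Igtp, an immunity-related GTPase, was highest in Schwann-like cells, at 147 and 156 CPM. In the WT-labelled library the interval of endothelial-like cells (143 CPM) overlapped. The lowest level fell in tenocyte-like cells for 8 (WT) and 9 (KO) genes, in MuSC-like cells for 8 and 7 and in lymphatic endothelial-like cells for 6 and 10, and never in one of the 4 largest types. Rsad2, for example, was at 6.46 and 3.42 CPM in MuSC-like and 7.30 and 6.46 CPM in tenocyte-like cells. Several of the lowest levels were 0 CPM in a small type, such as Ifi44 in T cell-like cells of both libraries. The share of all genes lowest in each type is not given here, so these counts are not set against all genes.

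**Figure D1:**
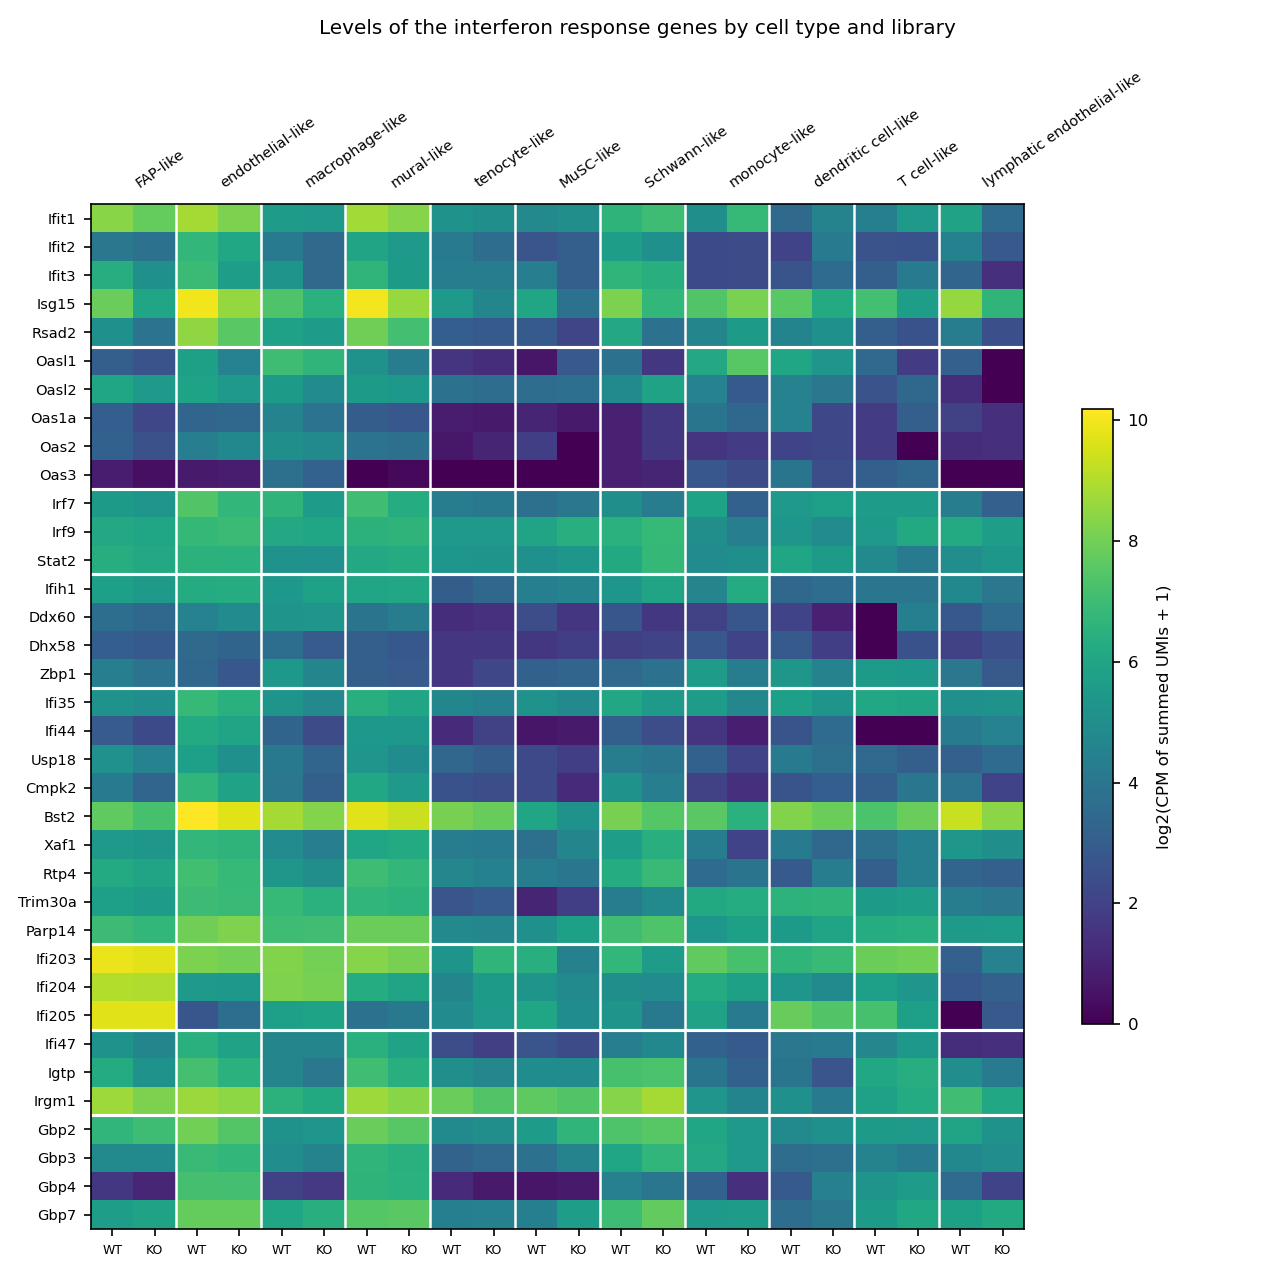
Levels of the 36 genes by cell type and library, as log2 of the CPM of summed UMIs plus 1 (color scale); rows are grouped by family with white lines, and each pair of columns is 1 cell type in the libraries labelled WT and KO. Isg15, Bst2, Rsad2 and Gbp4 were high in endothelial-like and mural-like cells, whereas Ifi203, Ifi204 and Ifi205 were highest in FAP-like cells.

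The response was uneven from cell to cell. A cell was called interferon-high when at least 3 of the 5 core genes (Ifit1, Ifit2, Ifit3, Isg15 and Rsad2) had a UMI. In endothelial-like cells 455 of 1227 cells (37.1%, 34.4 to 39.9) were interferon-high in the WT-labelled library and 298 of 1202 (24.8%, 22.4 to 27.3) in the KO-labelled library, a difference of -12.3 points (-16.0 to -8.57). In FAP-like cells the shares were 245 of 1902 (12.9%, 11.4 to 14.5) and 194 of 2388 (8.12%, 7.06 to 9.29), a difference of -4.76 points (-6.67 to -2.88). In macrophage-like cells they were 42 of 842 (4.99%, 3.62 to 6.68) and 29 of 1029 (2.82%, 1.90 to 4.02), a difference of -2.17 points (-4.10 to -0.346).

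The chance of seeing a UMI grows with depth, so the shares were also taken after each cell was thinned to 1000 UMIs, with shallower cells left out. In endothelial-like cells the shares were then 11.5% and 4.90% (23 and 18 cells left out) and in FAP-like cells 2.63% and 0.668% (155 and 142 left out), both lower in the KO-labelled library with intervals of the difference below 0 (-8.82 to -4.33 and -2.88 to -1.14 points). In macrophage-like cells 1.18% and 0.964% remained (81 and 95 left out), and the difference of -0.219 points (-1.39 to 0.851) was not detectable at this depth. Median UMIs per cell were 4451 and 4102 in endothelial-like, 6781 and 7773.5 in FAP-like and 5315.5 and 5346 in macrophage-like cells.

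MuSC-like and T cell-like cells had the smallest shares in both libraries. In MuSC-like cells 5 of 248 cells (2.02%) and 2 of 247 (0.810%) were interferon-high at median depths of 6450 and 5484 UMIs, and in T cell-like cells 1 of 83 and 2 of 87. No type here is known to lack these genes, so the share that free RNA alone would give was not measured. The shares in tenocyte-like (4.65% and 2.87%), monocyte-like (5.41% and 7.04%), dendritic cell-like (2.61% and 3.13%) and lymphatic endothelial-like cells (6.02% and 3.80%) rested on 20 or fewer cells per library and had intervals of the difference that spanned 0. Schwann-like cells had 16 of 197 (8.12%) and 18 of 156 (11.5%), with an interval of the difference from -3.15 to 10.4 points. The 469 and 449 cells of clusters left without a name, of which 256 and 234 had fewer than 1000 UMIs, had 16.4% and 14.3%.

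**Figure D2:**
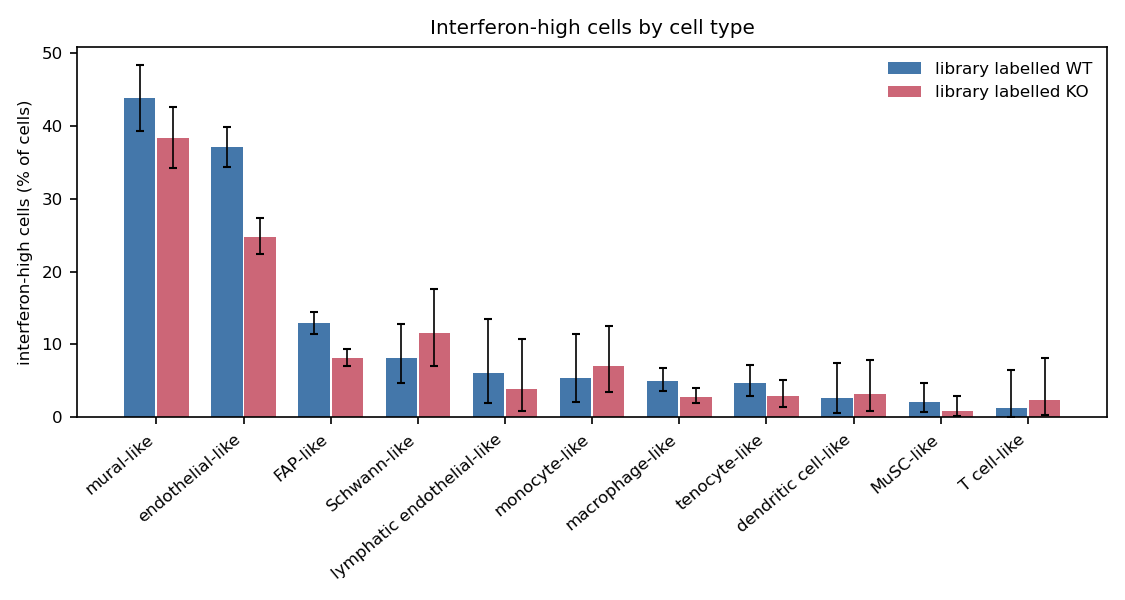
Share of interferon-high cells in each of 11 cell types (bars, % of cells) in the libraries labelled WT (blue) and KO (red), with exact binomial 95% intervals. Mural-like (43.8% and 38.3%) and endothelial-like cells (37.1% and 24.8%) stand above all other types in both libraries.

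Mural-like cells, the pericytes and smooth muscle of vessel walls, fell into clusters that differed. Of 468 and 543 such cells 205 (43.8%) and 208 (38.3%) were interferon-high, but 201 and 205 of them fell in cluster 8, where the shares were 70.3% and 59.2% at median depths of 12866.5 and 12766.5 UMIs. Cells of this cluster also carried 6056 and 6569 CPM of the endothelial markers, against 7927 and 8796 CPM in endothelial-like cells. In cluster 13, with 409 and 313 CPM of these markers and median depths of 1828 and 1754 UMIs, 4 of 182 (2.20%) and 3 of 197 (1.52%) cells were interferon-high. The interval of the difference between the libraries spanned 0 over all mural-like cells (-11.7 to 0.719 points). Isg15 was at 342 and 134 CPM in cluster 13 and at 1093 and 416 CPM in cluster 8. The part of endothelial RNA in the values of mural-like cells was not tested.

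Within types the interferon-high cells gathered in certain groups. Among FAP-like cells the group closest to the Thbs4 and Tnmd markers, whose leading genes were Tnc, Dlk1 and Thbs4, held 153 of 619 (24.7%, 21.4 to 28.3) and 118 of 889 (13.3%, 11.1 to 15.7) interferon-high cells. Its mean log2 fold was 0.851 for that marker set and 0.621 for the Hsd11b1 Mme set, so the name is a weak one. The Pi16 Dpp4 group held 13.5% and 7.97%, and the Clu Myoc, Hsd11b1 Mme and Sfrp1 Sfrp4 groups 4.87% to 7.24% in either library. Median depths of these groups ran from 6206 to 9411 UMIs, and after thinning the first group still had 5.49% and 1.35%, against 1.93% and 0.514% in the Pi16 Dpp4 group. The thinned difference had an interval below 0 in the first group (-6.34 to -2.21 points). It spanned 0 in the Pi16 Dpp4 group (-3.68 to 0.389 points), where 6 and 2 cells were left as interferon-high. Isg15 was at 324 and 84.2 CPM in the first group and at 182 and 41.6 CPM in the Pi16 Dpp4 group. In the other 3 groups it was lower in the KO-labelled library as well, from 106 and 39.7 CPM in the Clu Myoc group to 151 and 66.6 CPM in the Sfrp1 Sfrp4 group. Ifit1 was lower in the first 2 groups (529 and 335 CPM, 323 and 135 CPM) and had intervals of the ratio that spanned 0 in the other 3.

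Among endothelial-like cells the arterial group, marked by Sema3g and Gja5, held 74 of 107 (69.2%, 59.5 to 77.7) and 48 of 101 (47.5%, 37.5 to 57.7). The capillary group held 36.2% and 21.7% and the venous group, with 45 and 32 cells, 31.1% and 34.4%. Thinned to 1000 UMIs, arterial cells still had 22.6% and 8.91%, capillary cells 5.44% and 2.65% and the 652 and 691 endothelial-like cells of unnamed groups 14.1% and 5.34%. The interval of the thinned difference spanned 0 in capillary cells (-5.73 to 0.140 points). It lay below 0 in arterial cells (-24.0 to -3.20) and in the unnamed groups (-12.1 to -5.50). Isg15 reached 1752 and 597 CPM in arterial cells. Ifit1 was lower in the KO-labelled library in arterial (731 and 437 CPM) and capillary cells (231 and 137 CPM) and higher in venous cells (359 and 709 CPM). Of the 2 named macrophage groups, the Lyve1 Cd163 group had 16 of 201 (7.96%) and 6 of 212 (2.83%), a difference of -5.13 points (-10.1 to -0.484). The Trem2 Gpnmb group had 11 of 257 (4.28%) and 15 of 334 (4.49%), a difference of 0.211 points (-3.58 to 3.73). After thinning, 4 of 199 and 2 of 212 cells of the Lyve1 Cd163 group were interferon-high. The intervals of the difference then spanned 0 in the Lyve1 Cd163 group (-4.23 to 1.76 points) and the Trem2 Gpnmb group (-0.249 to 3.46 points). Ifit1 was at 77.1 and 32.9 CPM in the Lyve1 Cd163 group and at 19.4 and 52.6 CPM in the Trem2 Gpnmb group. No marker of the capillary or the Trem2 Gpnmb set was among the leading genes of its group. The differences between groups were not tested.

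**Figure D3:**
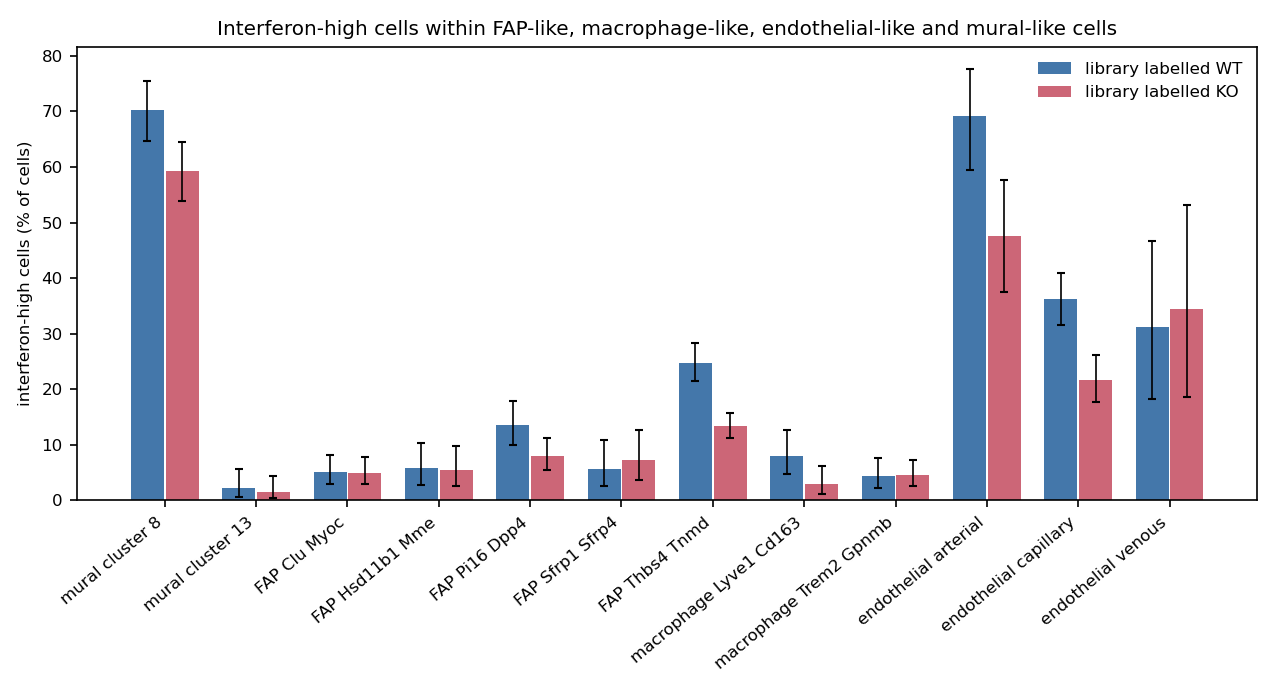
Share of interferon-high cells (bars, % of cells, with exact binomial 95% intervals) within the 2 mural clusters and the named groups of FAP-like, macrophage-like and endothelial-like cells, libraries labelled WT (blue) and KO (red). The arterial group (69.2% and 47.5%) and the group closest to the Thbs4 and Tnmd markers (24.7% and 13.3%) lead their types, and mural cluster 13 (2.20% and 1.52%) is far below cluster 8.

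The 5 core genes were lower in the KO-labelled library in endothelial-like cells, with Isg15 the furthest apart. Isg15, a ubiquitin-like protein joined to other proteins, had 7507 UMIs (1003 CPM) in the WT-labelled library and 2623 UMIs (377 CPM) in the KO-labelled library, 2.66-fold lower (log2 ratio -1.41, -1.48 to -1.35). Ifit3 stood at 123 and 51.3 CPM, 2.39-fold lower (log2 ratio -1.26, -1.44 to -1.08). Rsad2 stood at 358 and 189 CPM (log2 ratio -0.92), Ifit1 at 449 and 286 CPM (-0.65) and Ifit2 at 105 and 68.0 CPM (-0.62).

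In FAP-like cells Isg15 was again the furthest apart, and Ifit1 and Ifit2 differed least. Isg15 had 3011 UMIs (229 CPM) and 1210 UMIs (65.0 CPM), 3.52-fold lower in the KO-labelled library (log2 ratio -1.81, -1.91 to -1.72). Rsad2 was at 33.2 and 13.5 CPM (log2 ratio -1.30, -1.53 to -1.07) and Ifit3 at 80.8 and 33.9 CPM (-1.25, -1.40 to -1.11). Ifit1, the most abundant of the IFIT genes here, was at 330 and 221 CPM (-0.58), and Ifit2 at 15.7 and 13.3 CPM with an interval that spans 0 (-0.52 to 0.03).

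In macrophage-like cells Ifit3 led, at 37.1 and 10.6 CPM (172 and 61 UMIs), 3.50-fold lower in the KO-labelled library (log2 ratio -1.81, -2.25 to -1.38). Isg15 was at 164 and 89.3 CPM (log2 ratio -0.88) and Ifit2 at 17.5 and 10.4 CPM (-0.74). Ifit1 (47.2 and 44.0 CPM) and Rsad2 (55.9 and 47.4 CPM) differed by less than counting error.

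A gene was counted as past the threshold when its ratio exceeded 1.5-fold, among genes with at least 20 UMIs over both libraries. In FAP-like cells 10 of 35 members were past it downward and 0 upward, where 8.61% and 5.28% of all 13019 genes were. In endothelial-like cells 12 of 35 were down and 1 (Ifi205) up, against 6.23% and 5.71% of 11520 genes. In macrophage-like cells 13 of 36 were down and 0 up, against 8.97% and 7.22% of 10807 genes. In mural-like cells 8 of 35 were down and 0 up, against 5.64% and 7.75% of 11542 genes.

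The typical member differed little. The median log2 ratio (10 CPM added to each level) was -0.21 in FAP-like cells (order-statistic interval -0.34 to -0.15, all genes, -0.03), -0.25 in endothelial-like cells (-0.51 to -0.09, all genes, 0.02), -0.31 in macrophage-like cells (-0.41 to -0.12, all genes, -0.02) and -0.21 in mural-like cells (-0.33 to -0.09, all genes, 0.03). Intervals in the smaller types spanned 0. Medians there ran from -0.42 in monocyte-like to 0.13 in Schwann-like cells.

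Of the OAS family, which makes or resembles the makers of the RNase L activator, Oasl1 was lower in endothelial-like cells of the KO-labelled library (53.6 and 21.8 CPM, log2 ratio -1.29) and in mural-like cells (36.9 and 18.1 CPM, -1.02). Oasl2 was at 62.9 and 43.2 CPM in FAP-like and at 45.9 and 28.8 CPM in macrophage-like cells, of the 4 largest types past the threshold only in macrophage-like cells (-0.67, -0.97 to -0.37). Oas1a was past it downward in FAP-like (7.13 and 3.54 CPM) and macrophage-like cells (22.4 and 13.9 CPM), but not in endothelial-like cells (8.96 and 9.63 CPM).

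The transcription factors parted. Irf7, which amplifies the type I response, was lower in endothelial-like (170 and 107 CPM, log2 ratio -0.67), macrophage-like (98.6 and 46.7 CPM, -1.08) and mural-like cells (131 and 77.4 CPM, -0.76), whereas in FAP-like cells it stood at 45.2 and 39.6 CPM (-0.19). Irf9 and Stat2, which carry the signal itself, differed by no more than 0.18 in log2 ratio in these 4 types. Irf9 was at 69.6 and 61.9 CPM in FAP-like and 110 and 121 CPM in endothelial-like cells.

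Of the sensors, Zbp1 was past the threshold downward in macrophage-like (42.5 and 24.7 CPM) and endothelial-like cells (9.62 and 5.75 CPM). Ifih1, the sensor of long double-stranded RNA, was at 52.5 and 43.0 CPM in FAP-like and 41.8 and 55.3 CPM in macrophage-like cells, within the threshold in all 4 types. Ddx60 and Dhx58 were at no more than 39.8 CPM in these types, and Dhx58 was past the threshold downward in macrophage-like cells (11.9 and 6.60 CPM).

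Among the other effectors, Cmpk2, a mitochondrial nucleotide kinase whose gene adjoins Rsad2, was past the threshold in all 4 large types, from 17.4 to 8.97 CPM in FAP-like, 103 to 57.2 CPM in endothelial-like, 15.5 to 7.47 CPM in macrophage-like and 67.8 to 42.8 CPM in mural-like cells. Usp18, which removes ISG15 from proteins and damps the receptor, was lower in FAP-like (34.6 and 21.6 CPM), endothelial-like (52.4 and 33.5 CPM) and macrophage-like cells (16.4 and 8.86 CPM). Bst2 lay within the threshold in all 4, with log2 ratios from -0.52 to -0.33. Parp14 was within it too, at 124 and 107 CPM in FAP-like and 253 and 294 CPM in endothelial-like cells.

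Over all FAP-like cells the PYHIN genes differed little, but their direction was not the same in each group of these cells. Ifi205 had 11065 UMIs (840 CPM) and 15699 UMIs (843 CPM), a log2 ratio of 0.01 (-0.03 to 0.04). Ifi204 differed by -0.05 and Ifi203 by -0.17 in log2 ratio. In the Thbs4 Tnmd group all 3 were lower in the KO-labelled library, Ifi203 from 1546 to 1150 CPM (-0.43, interval -0.47 to -0.39), Ifi204 by -0.32 and Ifi205 by -0.28. In the Pi16 Dpp4 group Ifi203 was lower past the threshold, at 541 and 336 CPM (-0.69, -0.80 to -0.58), whereas Ifi204 (-0.08) had an interval that spans 0 and Ifi205 was higher (0.13). In the Clu Myoc, Hsd11b1 Mme and Sfrp1 Sfrp4 groups all 3 were higher, with log2 ratios from 0.37 to 0.73 and intervals above 0. Of these, Ifi205 (366 and 606 CPM, 0.73, 0.55 to 0.91) and Ifi203 (582 and 921 CPM, 0.66, 0.52 to 0.81) in the Sfrp1 Sfrp4 group were past the threshold. The difference between groups was not tested. In endothelial-like cells Ifi205 was past the threshold upward at a low level, 42 UMIs (5.61 CPM) in 38 cells and 81 UMIs (11.6 CPM) in 70 cells.

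Of the immunity-related GTPases, which attack vacuoles, Igtp was at 76.0 and 35.98 CPM in FAP-like cells (log2 ratio -1.08, -1.22 to -0.94) and past the threshold downward in 7 of the 11 types. Irgm1, the most abundant of the 3, was at 412 and 285 CPM in FAP-like (-0.53) and 404 and 347 CPM in endothelial-like cells (-0.22). Ifi47 was past the threshold in endothelial-like (86.2 and 56.9 CPM) and mural-like cells (86.8 and 57.6 CPM).

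The guanylate-binding proteins were split in FAP-like cells, where 2 of 4 were lower in the KO-labelled library. Gbp4 was past the threshold downward at a low level (28 and 21 UMIs, 2.12 and 1.13 CPM, log2 ratio -0.91, -1.80 to -0.05), and Gbp3 was at 28.5 and 27.8 CPM. Gbp2 was higher in FAP-like cells of the KO-labelled library (104 and 129 CPM, 0.31 in log2 ratio, 0.22 to 0.41) and lower in endothelial-like cells, at 255 and 177 CPM (-0.53, -0.63 to -0.42), within 1.5-fold in both. Gbp7 was at 51.7 and 57.9 CPM in FAP-like and 217 and 215 CPM in endothelial-like cells. In MuSC-like cells both were past the threshold upward, Gbp2 from 47.4 to 99.9 CPM and Gbp7 from 19.9 to 49.3 CPM.

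**Figure D4:**
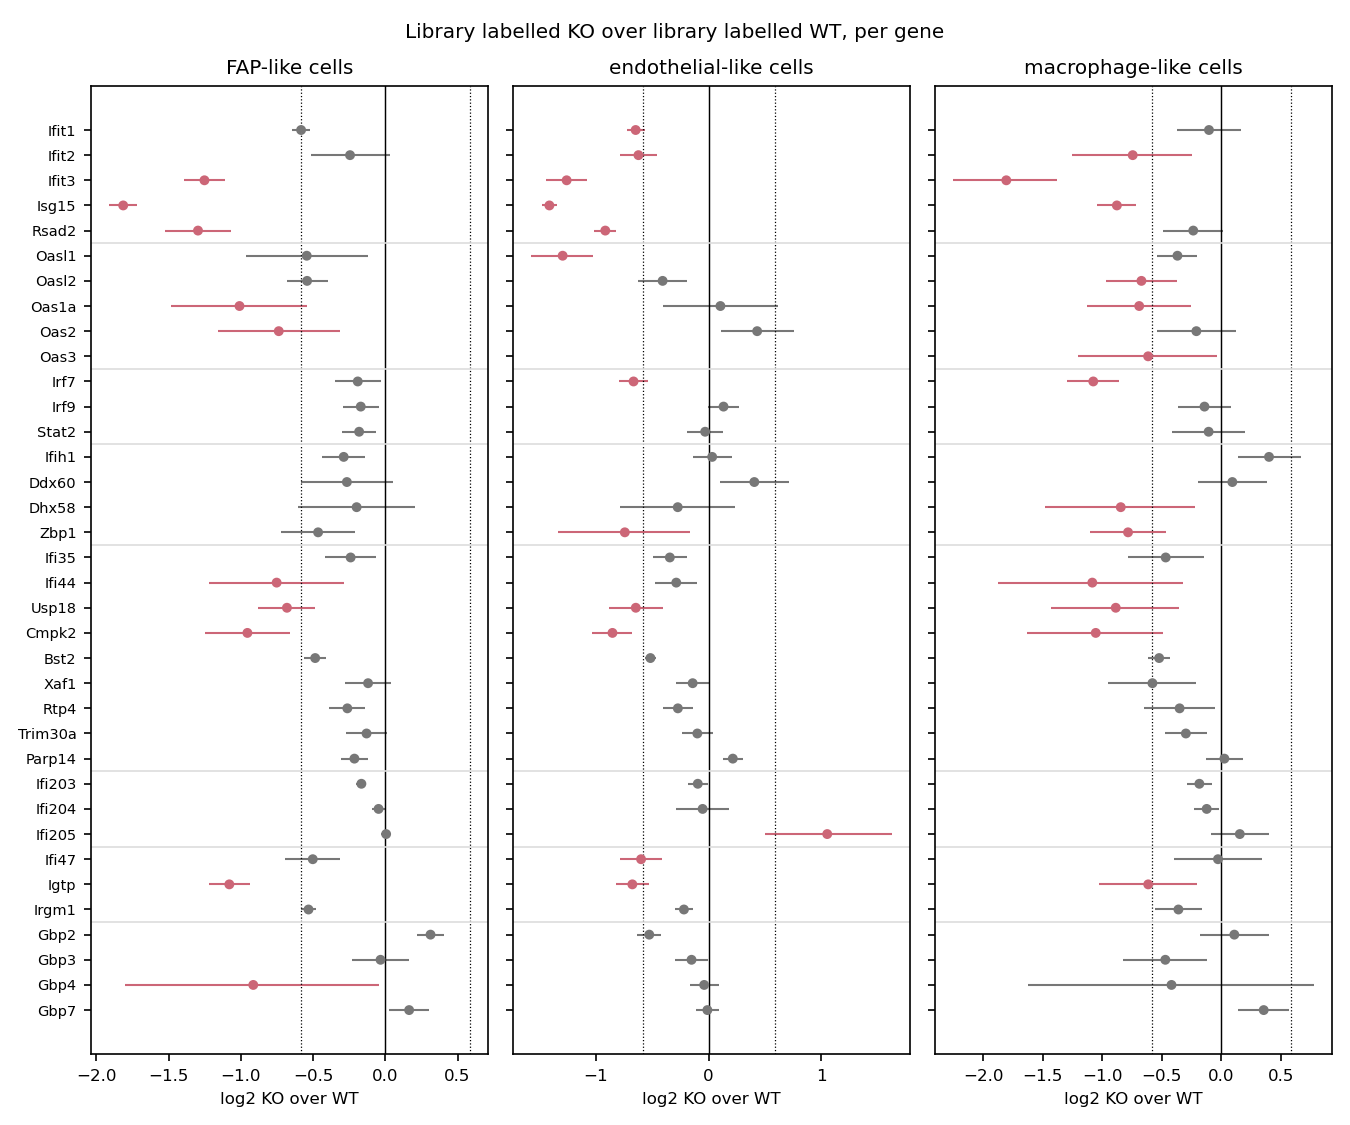
Log2 ratio of the KO-labelled library over the WT-labelled library for each member with at least 20 UMIs, in FAP-like, endothelial-like and macrophage-like cells; lines are exact 95% counting intervals, dotted lines mark 1.5-fold and red points lie past it. Isg15 and Ifit3 are low in all 3 types (log2 ratios from -1.81 to -0.88), whereas the PYHIN genes, summed over all FAP-like cells, lie near 0.

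Isg15 was past the threshold downward in 10 of the 11 types, including types with few interferon-high cells. In T cell-like cells it was at 142 and 49.96 CPM, and 33.7% and 18.4% of these cells had a UMI of it at median depths of 4204 and 3922 UMIs (12.3% and 5.81% after thinning). In MuSC-like cells it was at 63.5 and 13.0 CPM and in dendritic cell-like cells at 188 and 74.2 CPM. Cells with fewer than 1000 UMIs, 686 and 633 of them, carried 456 CPM (396 to 522) and 151 CPM (117 to 192) of it, so the shallowest cells differed in the same direction. The UMIs of Isg15 per UMI of Ifit1 were not the same in all types: 0.692 and 0.295 in FAP-like, 2.24 and 1.32 in endothelial-like and 3.47 and 2.03 in macrophage-like cells. The part of free RNA in these values was not tested.

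Monocyte-like cells were the exception for Isg15. It was higher in the KO-labelled library, with 174 UMIs (171 CPM) and 353 UMIs (279 CPM), a log2 ratio of 0.71 (0.44 to 0.98). These UMIs lay in 48 and 63 cells, with at most 31 and 26 in 1 cell. The share of cells with a UMI of Isg15 was 43.2% and 44.4%, and 12.1% and 22.0% after thinning. Ifit1 (33 and 142 UMIs, 32.4 and 112 CPM), Oasl1 (71 and 234 UMIs, 69.6 and 185 CPM) and Ifih1 (24 and 97 UMIs, 23.5 and 76.6 CPM) were higher too. Irf7 was lower, with 61 UMIs (59.8 CPM) in 15 cells and 10 UMIs (7.90 CPM) in 6 cells, and so were Bst2 (192 and 90.1 CPM) and Zbp1 (48.0 and 19.0 CPM). The type held 111 and 142 cells. Of 25 members 5 were past the threshold upward and 12 downward, where 11.6% and 13.4% of 6935 genes were.

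Other genes of the pathway were read beside the members. Of 21 interferon genes 4 were listed. Ifnb1 had 32 UMIs in 14 cells of the WT-labelled library and 54 UMIs in 22 cells of the KO-labelled library, and macrophage-like cells held 25 and 21 of these (5.39 and 3.65 CPM). Monocyte-like cells held 2 UMIs in the WT-labelled library and 31 UMIs (24.5 CPM, 16.6 to 34.8) in 9 cells of the KO-labelled library, of which 1 cell held 17. Ifng was read in T cell-like (22 and 57 UMIs, 55.6 and 142 CPM) and natural killer cell-like cells (24 and 17 UMIs, 161 and 137 CPM). Ifnab had 5 and 3 UMIs and Ifnz 3 and 2, each in a cell of its own.

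Of the 5 receptor genes with enough UMIs, none was past 1.5-fold in FAP-like, endothelial-like or macrophage-like cells, and Il10rb was past it upward in mural-like cells (27.3 and 47.1 CPM), where 7.75% of all genes were. Ifngr1 was at 173 and 135 CPM and Ifnar2 at 86.8 and 102 CPM in FAP-like cells. Irf8, a transcription factor of the same family as Irf7, was past the threshold upward in FAP-like (10.2 and 17.7 CPM) and endothelial-like cells (98.9 and 158 CPM), and Irf3 in mural-like cells (24.1 and 41.4 CPM). Irf1 and Jak1 lay within it in all 4 large types, with Irf1 at 302 and 330 CPM and Jak1 at 384 and 414 CPM in FAP-like cells. Of the sensors and adaptors, Cgas and Ticam1 were past the threshold downward in FAP-like cells (2 of 9, against 8.61% of all genes) and none of 8 in endothelial-like cells. In macrophage-like cells Myd88 was past it upward and Ddx58 downward (1 of 11 each, against 7.22% and 8.97%), and in mural-like cells Mavs upward (1 of 9, against 7.75%). Myd88 and Sting1 were at 78.5 and 116 CPM and at 16.4 and 23.5 CPM in FAP-like cells. Socs3, an inhibitor of JAK kinases, was higher in FAP-like cells of the KO-labelled library (571 and 897 CPM, log2 ratio 0.65), and Samhd1 was at 105 and 104 CPM.

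Of further type I genes 5 of 39 were down in FAP-like cells, where 8.61% of all genes were, 4 of 42 in endothelial-like cells (6.23%), 8 of 46 in macrophage-like cells (8.97%) and 6 of 41 in mural-like cells (5.64%). Upward there were 1, 1, 1 and 2 (5.28%, 5.71%, 7.22% and 7.75%). Ifit3b, a near copy of Ifit3 that can share its reads, was down in all 4. Ifitm3 and Ifitm2, which block viral entry, were at 1608 and 1373 CPM and at 811 and 832 CPM in FAP-like cells. Genes raised by interferon gamma were mixed: in FAP-like cells 4 of 14 were down (Gbp6, Gbp9, Tgtp1, Cd274) and 2 up (Gbp5, Cxcl10), where 8.61% and 5.28% of all genes were. In endothelial-like cells 1 of 15 was down (6.23%), in macrophage-like cells 3 of 14 were up (7.22%), and in mural-like cells 2 of 14 were down (5.64%) and 1 up (7.75%). Cxcl10, a chemokine, was 1.94-fold higher in FAP-like cells of the KO-labelled library, at 210 and 406 CPM (log2 ratio 0.95, 0.89 to 1.02), whereas Iigp1 was at 749 and 511 CPM. The 28 immediate-early and heat-shock genes, a sign of handling and stress, summed to 26901 and 37537 CPM in FAP-like, 49128 and 58566 CPM in endothelial-like and 37580 and 40007 CPM in macrophage-like cells. Their part in the differences was not tested.

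Cells with at least 3 core genes were compared with cells of the same type and library that had none, on the genes the rule did not use. Members were counted where the cells without a core gene held at least 20 UMIs of them in each library, so that no member entered through the interferon-high cells alone. In FAP-like cells 24 members did, and 24 were over 1.5-fold higher in interferon-high cells of both libraries, where 1.63% of 10061 genes were, with median log2 ratios of 2.55 (WT) and 2.13 (KO). In macrophage-like cells 24 of 25 were (Irf9 was not), against 5.24%, with medians of 2.44 and 2.002. In endothelial-like cells 13 of 18 were, against 3.36%, with medians of 1.13 and 0.88, and Stat2, Ifi35, Bst2, Xaf1 and Ifi203 were not past it in both. Mural-like cells without a core gene held enough UMIs of 3 members, of which 2 were past it, against 7.61%. With the 20 UMIs taken over both kinds of cells together, 29 members entered in FAP-like, 29 in macrophage-like, 30 in endothelial-like and 30 in mural-like cells. Those that entered only so, among them Ifi44, Oasl1 and Dhx58 in FAP-like cells, were few in cells without a core gene and had to differ.

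Interferon-high cells were also deeper, at medians of 9234 and 10083.5 UMIs in FAP-like cells against 4906.5 and 6472 in those without a core gene, and at 6668 and 7634 against 2494 and 2527 in endothelial-like cells. In FAP-like cells the endothelial markers were at 92.5 and 68.4 CPM in interferon-high cells and 61.9 and 32.7 CPM in the others. Macrophage-like interferon-high cells, 42 and 29 of them, carried 2958 and 7054 CPM of FAP markers against 665 and 1962 CPM in the others. In mural-like cells the endothelial markers were at 6162 and 6875 CPM against 692 and 2039 CPM. The part of RNA from other cells in these ratios was not tested.

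Single genes differed in how sharply they marked the interferon-high cells. In FAP-like cells Ifi44, which entered through the interferon-high cells, had the highest log2 ratios, 6.07 and 5.11, on 2 and 6 UMIs in cells without a core gene (intervals 4.16 to 9.15 and 3.88 to 6.63), followed in the WT-labelled library by Usp18 (3.51 and 2.80), Ifi47 (3.48 and 3.42), Cmpk2 (3.39 and 2.25) and Oasl2 (3.34 and 2.89). Irf9 (0.85 and 0.83) and Stat2 (1.08 and 0.996), which carry the signal, had the smallest in the WT-labelled library, and Ifi204 (1.66 and 0.80) in the KO-labelled library. Of the other PYHIN genes Ifi203 had 2.36 and 1.55 and Ifi205 2.05 and 1.15.

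**Figure D5:**
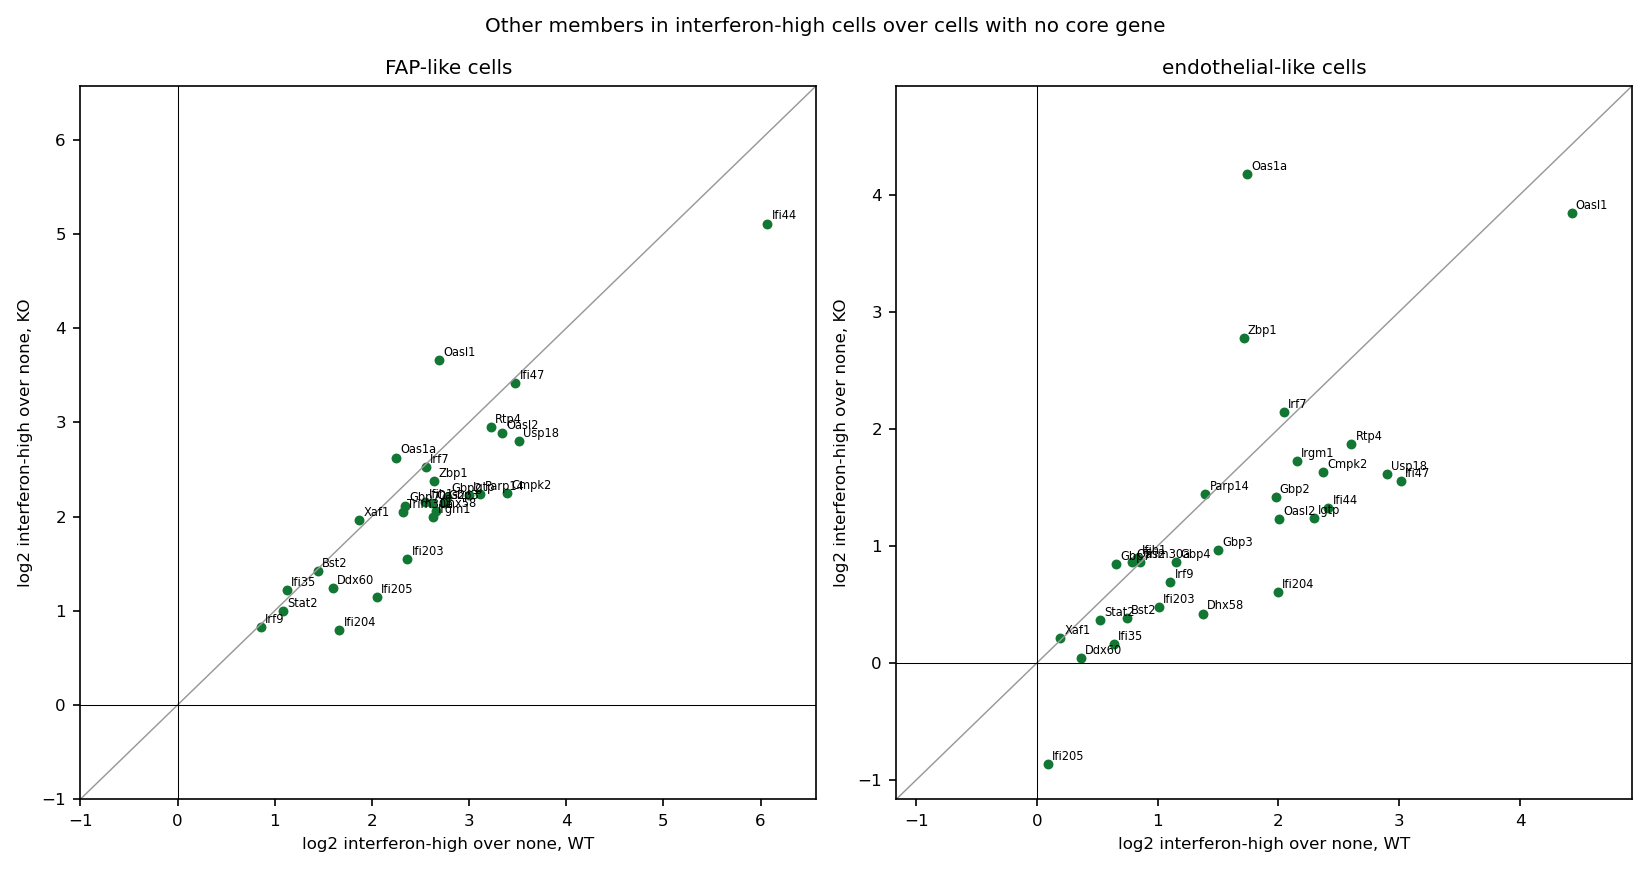
Log2 ratio of each member outside the 5 core genes in interferon-high cells over cells with no core gene, in the WT-labelled library (x axis) and KO (y axis), for FAP-like and endothelial-like cells; the gray line marks equal ratios. The 29 points of FAP-like cells are members with at least 20 UMIs over both kinds of cells together (medians, 2.62 and 2.14), and Ifi44, with 2 and 6 UMIs in cells without a core gene, stands highest at 6.07 and 5.11. The 24 members with at least 20 UMIs in cells without a core gene had medians of 2.55 and 2.13.

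Genes that are not members followed the same cells. The 10 with the largest smaller-of-both ratio in FAP-like cells were Ifit3b, Apol9a, Cxcl9, Gm4951, Gbp6, Cxcl10, Cd274, Slfn9, Iigp1 and Nlrc5. They were picked from 7314 genes with at least 20 UMIs in the interferon-high cells of each library. Genes could thus enter through the interferon-high cells alone. Without a core gene, Ifit3b was at 1.81 and 1.31 CPM, Apol9a at 1.61 and 1.86 CPM and Nlrc5 at 2.01 and 1.75 CPM. Ifit3b can also share reads with Ifit3, a core gene. Cxcl9, a chemokine that draws T cells, was at 24.5 CPM without and 462 CPM with the core genes in the WT-labelled library and at 64.3 and 638 CPM in the KO-labelled library. Cxcl10 was at 64.1 and 579 CPM and at 163 and 1228 CPM. Cd274, which encodes PD-L1, was at 4.22 and 48.6 CPM and at 3.82 and 27.0 CPM. Iigp1 was at 252 and 1832 CPM and at 219 and 1392 CPM.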

How the data were processed

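Cells of 1 library per genotype were read with the Chromium 5′ kit. The authors used Cell Ranger (version 2.1.1 and build mm10 in the submitters' processing notes; the study's methods name another version), Seurat and DoubletFinder, removed cells rich in mitochondrial RNA, and deposited 1 table of 19169 genes by 13432 cells, the number in the study's results; its methods state more. Its values are deposited as the natural log of 1 plus UMIs per 10000 UMIs of the cell. No mitochondrial gene is listed, so that filter could not be checked. Barcode endings name the library.

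From the logs the UMIs were recovered; each of the 29528482 nonzero values came within 0.241 of a whole number, and simulated data gave back 500 of 500 cells. Cells were clustered (2000 variable genes without 110 interferon genes, Harmony rewritten in numpy, 30 principal components, 20 neighbors, Louvain resolution 0.8, seed 1) and named from markers as types they resemble. Parts of the naming rules were set after clusters had been seen. Mixtures of lineages with few leading markers stayed unnamed. Groups with none of their markers among their leading genes stayed unnamed only where a further rule also failed. The capillary group (mean log2 fold of its markers 0.341), the Trem2 Gpnmb group (1.42) and several FAP-like clusters had none there and kept a name. Groups within types were drawn at resolution 0.4. Doublets were taken as removed by the authors; Scrublet calls (101 and 109 cells) were left out as an alternative, and all cells were kept at every depth.

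Levels are CPM of summed UMIs with exact Poisson intervals, and shares have exact Clopper-Pearson intervals. Ratios have an exact binomial interval from the split of UMIs between libraries. Differences of shares have an interval joined from both exact intervals by Newcombe's square-and-add rule. All of these cover counting error only. The order-statistic intervals of medians come from the ranked ratios of the members, taken as separate draws, and are not counting intervals. A gene at 0 UMIs in the lower group was set to 3 UMIs for the ratio of interferon-high cells. Ratios needed 20 UMIs and types 50 cells in both libraries. Thinning was to 1000 UMIs per cell. The members and lists were chosen with earlier results of these data known. The text names all members by role, gives values for the 5 core genes, the 2 with most UMIs per role and members past 1.5-fold one way in at least 3 types, and names 10 further genes by their smaller ratio in interferon-high FAP-like cells; other members were named after their values were seen, as were pathway genes past the threshold. Of pathway genes the 2 of most UMIs per role are given; part of the list of kinases and transcription factors, and so its count, is not reported here. Scripts used scanpy 1.11.5, igraph 0.11.9, matplotlib 3.10.9, scikit-learn 1.9.0, scipy 1.17.1 and numpy 2.4.6 under Python 3.11.15. Promoters and gene positions are from RefSeq.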

Additional observations from a re-analysis of the deposited data

Results flagged for a closer look

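A gene was picked out where its ratio between the libraries lay past 1.5-fold upward in 1 cell type and downward in another, with both counting intervals past that size, a size chosen after the data were seen; with 1 library per genotype the difference between types was not tested. Ratios are log2, KO over WT. For Ifit1 the value was 1.79 (1.24 to 2.39) in monocyte-like cells and -2.40 (-3.81 to -1.22) in lymphatic endothelial-like cells. The latter rests on 38 UMIs in 10 cells and 7 UMIs in 4 cells.

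Oasl1 had a log2 ratio of 1.41 (1.02 to 1.81) in monocyte-like cells, whereas endothelial-like cells had -1.29 (-1.57 to -1.02) and mural-like cells -1.02 (-1.39 to -0.66). In monocyte-like cells its 71 and 234 UMIs came from 24 and 53 cells, with at most 14 and 24 UMIs in 1 cell.

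Ifi203 had a log2 ratio of 1.42 (1.18 to 1.66) in tenocyte-like cells, -1.98 (-2.58 to -1.41) in MuSC-like cells and -1.19 (-1.74 to -0.68) in Schwann-like cells. Few cells carried these counts: 18 and 12 MuSC-like cells had a UMI, and 1 cell of the library labelled WT held 59 of 155. In tenocyte-like cells 66 and 77 cells had a UMI, with at most 42 and 62 in 1 cell.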

How the results depend on the processing

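Alternatives were run for shares, median ratios and counts of members in FAP-like, endothelial-like and macrophage-like cells. They were also run for interferon-high against other cells and for the type levels of Isg15 and Ifi203. Of these alternatives 152 gave the same result and 19 moved past its interval or count limit. No share, median or level changed sign, and counts have none. Except for the values after thinning given above, other types, other groups and single genes between the libraries were not rerun. The median ratios of the members in FAP-like, endothelial-like and macrophage-like cells stayed within their intervals in all 36 alternatives. Leaving out FAP-like and macrophage-like cells with a UMI of Pecam1, Cdh5 or Cldn5, or keeping only the Lyve1 Cd163 and Trem2 Gpnmb groups of macrophage-like cells, alternatives chosen after seeing the data, gave share differences of -4.77, -2.70 and -2.05 points, the last with an interval from -5.00 to 0.743. Thinning to 1000 UMIs gave -1.97 points in FAP-like, -6.56 in endothelial-like and -0.219 in macrophage-like cells, and asking for at least 2 core genes -8.83 in FAP-like and -5.17 in macrophage-like cells. At 2-fold, 5 members were down in FAP-like, 3 in endothelial-like and 4 in macrophage-like cells. The share of all genes past 2-fold is not given here, so these counts are not set against all genes. The count of members up in endothelial-like cells was 0 when interferon genes could be variable genes, 0 without integration and 2 by the mean over cells. In interferon-high FAP-like cells the medians were 1.88 (WT) and 1.65 (KO) against all cells with fewer than 3 core genes, and 2.78 (WT, 46 cells) and 2.60 (KO, 15 cells) when cells were classed after thinning, which gave 3.27 in macrophage-like cells (KO, 9 cells). The log2 level of Ifi203 in FAP-like over endothelial-like cells was 1.65 (WT) and 1.5001 (KO) when interferon genes could be variable genes and 1.59 (KO) by the mean over cells. Leaving out Scrublet calls removed 0 endothelial-like cells, so it bears only on FAP-like (8 and 10 cells removed) and macrophage-like cells (24 and 29), where 12 members each were then down. With all cells kept, 10 and 13 members were down in these types, where 8.61% and 8.97% of all genes were. No paired analysis was possible because each group holds 1 library. Depth limits the shares: a cell of few UMIs can be interferon-high and not be read as such.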
